A study of Homo sapiens with 9 samples.

Results

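Long intergenic noncoding RNAs with a LINC symbol were examined in a human lung adenocarcinoma cell line carrying control or HUMT-directed hairpins. A row of the deposited gene table counted as a member when its symbol was LINC followed by digits and its estimated count averaged at least 20 over the 9 libraries. Of 27059 rows, 610 had such a symbol and 185 were members, while the other 425 LINC rows lay below 20. Members were thus selected on their mean level over all libraries, and levels are given as a description. By the library labels, the cells were PC9/GR, a lung adenocarcinoma line resistant to gefitinib, which inhibits the EGF receptor kinase. Headers of the data columns name A549 instead, as described below. RNA was sequenced from 3 groups of 3 libraries each. The group shNC carried a control hairpin, and the groups labelled sh1-HUMT and sh2-HUMT each carried a different hairpin designed against HUMT. All groups carried a hairpin and grew in the same serum-containing medium, and no dose or time after hairpin delivery is given in the sources used here, nor whether the lines were clones or pools.

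LINC is a naming scheme, not a family: it is given to transcripts between protein-coding genes that show no clear coding potential, and the genes share neither sequence nor function by definition. Such RNAs are transcribed by RNA polymerase II, are often spliced and polyadenylated, and usually reach lower levels than messenger RNAs. Some act near their own locus by tuning a neighbouring gene, some act in trans through proteins, and many have no known role. The nuclear RNA exosome and its cofactors degrade many of them, and the Integrator complex ends the transcription of others. HUMT is a listed synonym of LINC00857 (gene ID 439990), the designed target of both hairpins.

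Promoter sequences of 4 members are shown because the values below turn on these genes. LINC00857 is the designed target, LINC01504 is the highest member, LINC01578 had the smallest adjusted p among the highest 10, and LINC01770 showed the highest called change. Each runs from 250 bases before to 50 after the annotated start, 5′ to 3′ on the gene's strand, from RefSeq on GRCh38.p14. Capitals mark matches, on either strand, to any of 7 searched motifs.
LINC00857 (chr10:80207460-80207759, + strand): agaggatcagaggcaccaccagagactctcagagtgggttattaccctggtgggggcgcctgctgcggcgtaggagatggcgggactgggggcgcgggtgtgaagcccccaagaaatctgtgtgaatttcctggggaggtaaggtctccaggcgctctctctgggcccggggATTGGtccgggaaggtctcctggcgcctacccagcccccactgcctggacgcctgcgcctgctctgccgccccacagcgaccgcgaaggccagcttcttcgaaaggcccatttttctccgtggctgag
LINC01504 (chr9:72305186-72305485, + strand): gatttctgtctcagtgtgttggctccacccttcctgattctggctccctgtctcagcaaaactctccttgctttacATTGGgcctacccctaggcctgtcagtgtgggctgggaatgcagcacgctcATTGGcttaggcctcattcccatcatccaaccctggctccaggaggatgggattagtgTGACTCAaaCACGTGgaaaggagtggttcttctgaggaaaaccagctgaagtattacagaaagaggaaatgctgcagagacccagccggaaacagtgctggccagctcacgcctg
LINC01578, listed in RefSeq as CHASERR (chr15:92882593-92882892, + strand): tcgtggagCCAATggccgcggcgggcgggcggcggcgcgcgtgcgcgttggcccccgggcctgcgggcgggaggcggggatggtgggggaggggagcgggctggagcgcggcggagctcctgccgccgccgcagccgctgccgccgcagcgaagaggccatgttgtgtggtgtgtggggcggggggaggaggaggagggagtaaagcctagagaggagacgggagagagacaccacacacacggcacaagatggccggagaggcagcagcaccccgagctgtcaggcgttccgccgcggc
LINC01770 (chr1:1434524-1434823, - strand): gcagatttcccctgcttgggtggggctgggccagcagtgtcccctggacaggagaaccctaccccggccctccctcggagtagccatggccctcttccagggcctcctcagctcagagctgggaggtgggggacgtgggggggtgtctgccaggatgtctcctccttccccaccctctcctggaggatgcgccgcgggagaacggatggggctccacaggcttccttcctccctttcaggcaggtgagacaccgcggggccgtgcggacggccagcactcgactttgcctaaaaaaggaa

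The motifs were an AP-1 element (TGANTCA), the cAMP response element (TGACGTCA), an ATF4 element (TGATGCAA), a heat shock element (GAA, TTC and GAA separated by NN), the E-box CACGTG, the TATA box (TATAAA) and the CCAAT box. The LINC01504 window held an AP-1 match, an E-box 2 bases further on and a pair of CCAAT boxes. The windows of LINC00857 and LINC01578 each held a CCAAT box, and that of LINC01770 held no match. Of 27305 promoters in the RefSeq table, 7.76% held the AP-1 element, 7.43% the E-box and 35.7% the CCAAT box. Of the 128 members with a promoter there, 10 (7.81%) held the AP-1 element, 11 (8.59%) the E-box and 47 (36.7%) the CCAAT box. The median GC content was 58.3% for both sets of promoters. Member promoters thus held these letters about as often as promoters at large, and a match is a description of the letters only.

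The designed target showed no called change with either hairpin. In shNC, LINC00857 had 9.36, 9.86 and 8.51 CPM (CPM are counts scaled to the TMM-adjusted library size). With the hairpin labelled sh1-HUMT it stood at 9.17, 9.58 and 10.1 CPM, and with the other at 8.75, 9.60 and 8.50 CPM. The 3 groups overlapped. Against shNC, the log2 fold change was 0.06 (95% interval -0.14 to 0.25, edgeR adjusted p = 0.685) for libraries labelled sh1-HUMT. For those labelled sh2-HUMT it was -0.05 (95% interval -0.24 to 0.15, edgeR adjusted p = 0.740), and the value turned to 0.05 once GC content and transcript length were corrected for. The lower bounds of these intervals correspond to 0.909 and 0.845 of the control level. Among the 183 members tested, LINC00857 ranked 145 and 149 by p-value and 89 and 108 by log2 change, counted from the highest. It ranked 41 of 185 by mean count. The library labels are kept below, although the counted target was not reduced in them.

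The deposited FPKM, which divide by the length of the transcripts, put LINC00857 at 1.86, 1.94 and 2.0 in shNC, at 2.19, 1.97 and 2.29 in sh1-HUMT and at 1.4, 1.6 and 2.3 in sh2-HUMT. Count and FPKM together imply the transcript length that the authors' estimation used in each library. For LINC00857 that length ran from 3748 to 6320 bases, a ratio of 1.69, against a median ratio of 1.18 among the 134 members with at least 0.2 FPKM in every library. It was 6320, 6012 and 3748 bases in the 3 libraries labelled sh2-HUMT and 4876, 5030 and 4134 bases in shNC. The groups overlapped on that measure too, and single transcripts were not tested. The correction for GC content and length used a transcript of 2161 bases for LINC00857, against an implied length of 4752 bases over all libraries. In RefSeq LINC00857 overlaps RPS12P2, and with no strand use stated their reads cannot always be told apart. The gene next to LINC00857 in RefSeq order, ANXA11 (annexin A11, a calcium-dependent phospholipid-binding protein), stood at 211.1 ± 2.17, 213.6 ± 6.88 and 224.4 ± 2.90 CPM (SD, n = 3). Its log2 fold change was 0.02 (edgeR adjusted p = 0.691) and 0.09 (edgeR adjusted p = 0.0281), so it passed the test only for libraries labelled sh2-HUMT.

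Libraries held 21891060 to 22159921 estimated counts, of which members took 0.162 to 0.177%. The common biological coefficient of variation was 7.02%. Nothing states that replicates were separate cultures, and the spread behind each p-value may therefore be technical. Column headers speak of A549, a different lung line, and of Si rather than sh, which leaves the labels as the source for both cells and groups. The design text given with the series describes an unrelated experiment, a knockdown of the RNA SNHG1 in retinoblastoma cells, and was not used. Of the epithelial markers, the keratins KRT8, KRT18 and KRT7 and the adhesion proteins CDH1 and EPCAM were expressed, while NKX2-1 and SFTPB, markers of lung epithelium, averaged under 1 CPM in every group. The summed level of all 7 epithelial markers was 5279 to 5514 CPM in shNC and lay below that range at 4152 to 4430 CPM in sh1-HUMT and 4257 to 4298 CPM in sh2-HUMT. Of the 6 tested, 4 and 3 were called lower, KRT7 at log2 -0.55 and -0.58 among them, and CDH1 was called higher at 0.33 and 0.32 (edgeR adjusted p = 1.04e-05 and 1.26e-05). Markers of fibroblasts, leukocytes and endothelium summed to 18.1 to 21.8 CPM in shNC, 23.6 to 25.7 CPM in sh1-HUMT and 27.6 to 29.4 CPM in sh2-HUMT, over the 10 of 11 in the table. DCN was at 0 in all 6 libraries with a HUMT hairpin, and LUM, PTPRC and CDH5 averaged under 0.2 CPM in every group. Most of the sum was COL1A1, a collagen chain, at 17.2, 20.9 and 23.9 CPM, which rose by log2 0.28 and 0.48 (edgeR adjusted p = 0.0112 and 0.000351). PECAM1, an endothelial adhesion protein, rose from 0.918 CPM to 1.68 and 1.84 CPM, log2 0.87 and 1.0 (edgeR adjusted p = 0.0269 and 0.0129). The part of either marker list in the changes of the LINC RNAs was not tested. Paired values below are for sh1-HUMT and then sh2-HUMT, each against shNC. These comparisons share the 3 shNC libraries, so likeness between them is not independent support.

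Member levels spanned a wide range, and a few RNAs held much of the total. The median member averaged 74.9 counts, against 347.7 for all 18540 genes tested. There were 120 members with at least 50 counts, 74 with at least 100 and 7 with at least 1000. LINC01504 alone gave 12.6% of all member counts and the 10 highest members gave 43.1%. By counts, these 10 were LINC01504, LINC00963, LINC01964, LINC00674, LINC00173, LINC00847, LINC01106, LINC01184, LINC01578 and LINC00893. Per length, LINC01504 was again first at a mean of 52.9 FPKM, followed by LINC01964 at 36.7, LINC01578 at 33.3, LINC00963 at 22.7 and LINC01184 at 16.1 FPKM. LINC00857 averaged 1.95 FPKM and ranked 40 on that scale. The short LINC01795, with an implied length of 799 bases, ranked 44 by count and 7 by FPKM.

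**Figure D1:**
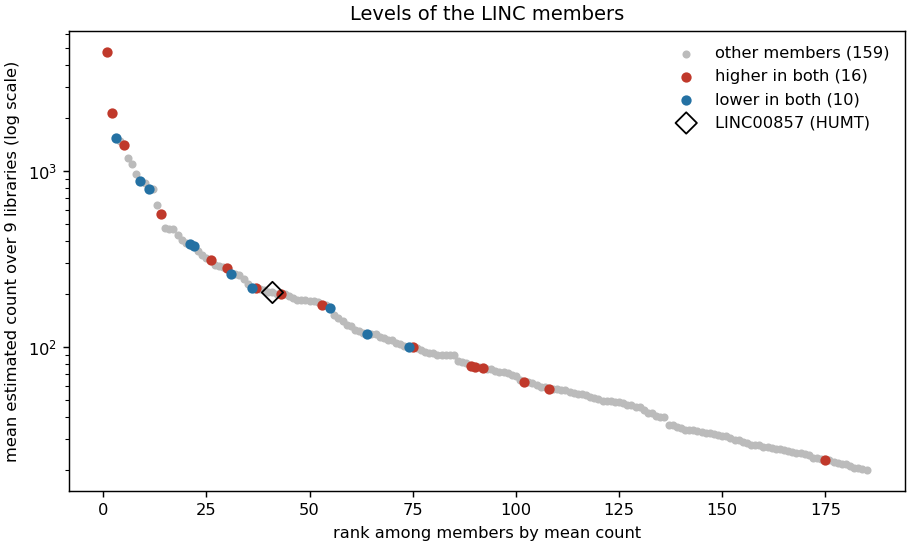
Mean estimated count over 9 libraries (log axis) against rank for the 185 members; red and blue points passed the test in both comparisons, higher or lower than shNC, and the diamond is LINC00857. LINC00857 sits at rank 41, and of the 26 coloured points all but LINC00689 (rank 175) lie at rank 108 or before it.

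Summed over members, levels were 1673 to 1681 CPM in shNC, 1707 to 1741 CPM in sh1-HUMT and 1716 to 1739 CPM in sh2-HUMT. Every library with a HUMT hairpin thus lay above every shNC library. Without LINC01504 the sums were 1473 to 1482 CPM in shNC, 1475 to 1519 CPM in sh1-HUMT and 1486 to 1525 CPM in sh2-HUMT, and the groups sh1-HUMT and shNC then overlapped. The median log2 change of members was 0.02 and 0.04, beside 0.00 and 0.00 for all genes tested.

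The called share of members lay below that of genes at large, and so did their counts. In sh1-HUMT, 34 of the 183 members tested (18.6%) were called at an adjusted p under 0.05, 20 higher (10.9%) and 14 lower (7.65%). Of all genes tested, 31.9% were called, 15.7% higher and 16.3% lower. In sh2-HUMT, 36 (19.7%) were called, 26 higher (14.2%) and 10 lower (5.46%). Of all genes tested, 32.5% were called, 15.9% higher and 16.5% lower. Near its threshold the membership rule keeps rises more readily than falls, and its part in the balance of higher and lower calls was not tested. With GC content and length corrected for, the counts were 41 (32 higher, 9 lower) and 44 (35 higher, 9 lower). The share of higher calls was thus 78.0% in place of 58.8% for sh1-HUMT and 79.5% in place of 72.2% for sh2-HUMT. Of the 18540 genes tested, that correction called 2906 higher and 2707 lower in sh1-HUMT and 2981 higher and 2756 lower in sh2-HUMT. That correction also moved the members' median log2 change to 0.13 and 0.13, and that of all genes tested to 0.01 and 0.02. It rests on the longest GENCODE transcript, which can differ from the counted model (LINC00674: 678 bases, implied length 6295 bases). Members without such a transcript, LINC00673 among them, were left uncorrected. In 58 members (31.7%) of either comparison, all 3 libraries lay beyond all 3 shNC libraries, where 44.3% and 46.5% of all genes tested did. At least 2-fold changes were called for 3 members in each comparison (1.64%), beside 1.95% and 2.01% of all genes tested.

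The called share rose with counts among members and among genes at large. Of the 63 members with 20 to 50 counts, 3 were called in each comparison (4.76%), beside 9.98% and 9.79% of all genes in that range. Of the 46 with 50 to 100 counts, 7 and 9 were called, beside 15.1% and 16.9% of genes. Of the 48 with 100 to 300 counts, 10 and 12 were called, beside 26.0% and 28.2%. Of the 26 with at least 300 counts, 14 (53.8%) and 12 (46.2%) were called, beside 46.9% and 47.1% of genes. The median standard error of a member's log2 change in sh1-HUMT fell from 0.27 in the lowest range to 0.06 in the highest. The smallest change called in these ranges was 0.78 and 0.13 on the log2 scale. At 20 to 50 counts the standard error of members was close to that of all genes in that range (0.27 and 0.29), and why fewer of them were called was not tested.

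**Figure D2:**
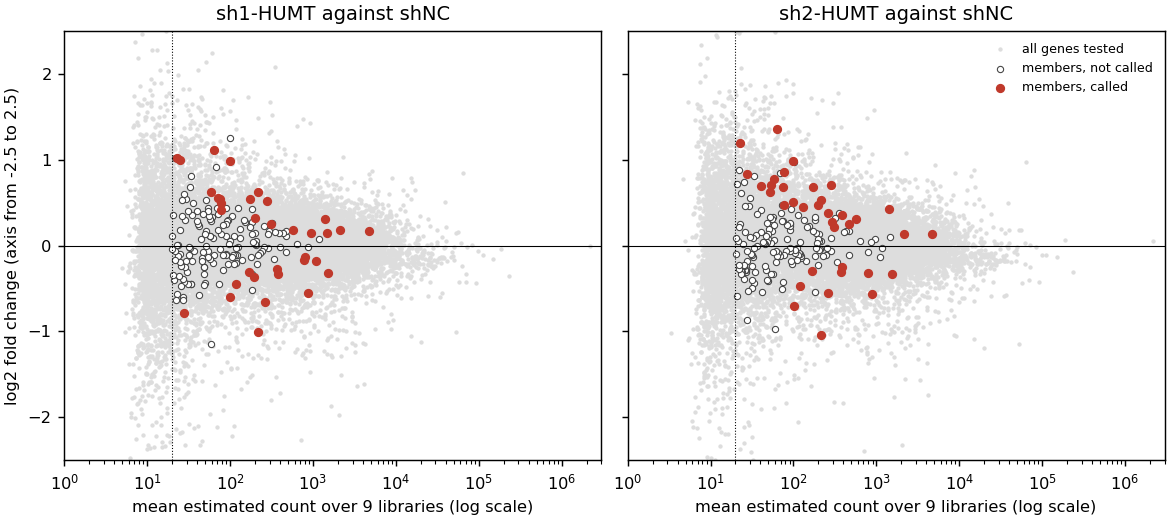
Log2 fold change against mean estimated count (log axis) for all 18540 genes tested (grey) and the tested members (circles; red where called), one panel per comparison with shNC; the dotted line is the mean count of 20. Called members with few counts have large changes, and those with many counts reach down to small changes; 68 and 77 genes lie outside the drawn range of log2 changes.

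Both comparisons called 26 members in the same direction (14.2%), beside 25.1% of all genes tested, 16 of them higher and 10 lower (12.3% and 12.8% of all genes). None was called in opposite directions, where 0.00539% of genes were. The count serves to name genes, because the shared controls tie the comparisons together. For 11 of the 26 (7 higher and 4 lower) both calls held under every alternative run, and these are given first.

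LINC02595 (gene ID 401585) showed the largest fall among called members. It stood at 15.0, 15.1 and 15.1 CPM in shNC, at 7.66, 7.37 and 7.33 CPM in sh1-HUMT and at 7.18, 7.51 and 7.25 CPM in sh2-HUMT. The shNC libraries lay far above the other 6, which were close together. The log2 fold change was -1.01 ± 0.07 (SE; edgeR adjusted p = 7.15e-07) and -1.04 ± 0.07 (SE; edgeR adjusted p = 5.12e-07). What this row measures is uncertain. The RefSeq entry spans 3417 bases, whereas counts and FPKM (0.15 to 0.16 in shNC, 0.07 to 0.08 elsewhere) imply a counted length of 97716 bases, a rough value because these FPKM are low and rounded. In RefSeq order it lies next to MIR222, and its symbol is also listed for MIR222HG, the host transcript of miR-221 and miR-222, which has no row of its own in the table.

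LINC01578 (gene ID 100507217), now named CHASERR, also fell. It is transcribed just upstream of CHD2, which encodes a chromatin remodeller, and in mice its loss raises Chd2. It stood at 51.3, 49.8 and 52.2 CPM in shNC, at 34.9, 35.5 and 34.0 CPM in sh1-HUMT and at 35.9, 32.9 and 34.8 CPM in sh2-HUMT, with no overlap between control and hairpin libraries. The log2 fold change was -0.55 ± 0.04 (SE; edgeR adjusted p = 1.83e-06) and -0.57 ± 0.04 (SE; edgeR adjusted p = 1.42e-06). CHD2 went the same way by less, from 164.0 ± 3.0 CPM to 145.0 ± 6.33 and 142.3 ± 1.70 CPM (SD, n = 3), log2 -0.18 and -0.21 (edgeR adjusted p = 0.00138 and 0.000484). The implied length of the counted LINC01578 transcripts was 1245 to 1284 bases in shNC and 1126 to 1204 bases in the other 6 libraries, which did not overlap.

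LINC01964 (gene ID 100996478), the third member by counts, was at 83.6, 80.4 and 79.2 CPM in shNC, at 63.2, 67.5 and 63.5 CPM in sh1-HUMT and at 63.8, 64.8 and 64.1 CPM in sh2-HUMT. Again the shNC libraries lay above the rest. The log2 fold change was -0.32 ± 0.04 (SE; edgeR adjusted p = 4.04e-05) and -0.34 ± 0.04 (SE; edgeR adjusted p = 2.88e-05). Its neighbour in RefSeq order, KCMF1, a ubiquitin ligase, was at 25.9 ± 0.786, 26.2 ± 0.966 and 26.3 ± 0.541 CPM (SD, n = 3) and did not pass the test. LINC01239 (gene ID 441389) fell from 6.12, 5.94 and 6.11 CPM to 3.87, 3.69 and 4.42 CPM in sh1-HUMT and to 3.10, 3.80 and 4.21 CPM in sh2-HUMT. Its log2 fold change was -0.60 ± 0.13 and -0.71 ± 0.14 (SE; edgeR adjusted p = 0.00488 and 0.00169).

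LINC01770 (gene ID 102724312) showed the largest rise among called members. It stood at 1.74, 1.24 and 1.51 CPM in shNC, at 2.94, 3.82 and 2.95 CPM in sh1-HUMT and at 3.86, 3.62 and 4.03 CPM in sh2-HUMT. Every library with a HUMT hairpin lay above every shNC library. The log2 fold change was 1.11 ± 0.19 (SE; edgeR adjusted p = 0.000726) and 1.35 ± 0.18 (SE; edgeR adjusted p = 0.000149). It overlaps a protein-coding gene in RefSeq, and with no strand use stated for the counting, reads of the overlapping genes cannot be told apart. LINC02582 (gene ID 100505817) rose from 3.01, 2.49 and 2.68 CPM to 5.92, 4.63 and 5.63 CPM in sh1-HUMT and to 4.94, 5.84 and 5.50 CPM in sh2-HUMT. The log2 fold change was 0.98 ± 0.14 and 0.99 ± 0.14 (SE; edgeR adjusted p = 0.000240 and 0.000215).

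LINC00482 (gene ID 284185) was at 10.1, 9.26 and 8.98 CPM in shNC, at 12.9, 13.2 and 14.7 CPM in sh1-HUMT and at 16.02, 15.3 and 14.7 CPM in sh2-HUMT. LINC00887 (gene ID 100131551) was at 5.65, 5.62 and 6.21 CPM in shNC, at 9.17, 7.96 and 8.27 CPM in sh1-HUMT and at 8.93, 10.0 and 9.21 CPM in sh2-HUMT. In both genes all 6 libraries with a HUMT hairpin lay above all 3 shNC libraries. Their log2 fold changes were 0.53 and 0.70 for LINC00482 (edgeR adjusted p = 0.000397 and 3.70e-05) and 0.54 and 0.69 for LINC00887 (edgeR adjusted p = 0.00114 and 0.000179). LINC01410 (gene ID 103352539) rose from 7.36 ± 0.410 CPM to 11.3 ± 0.958 and 10.7 ± 1.37 CPM (SD, n = 3), log2 0.62 and 0.53 (edgeR adjusted p = 0.000982 and 0.00253). It also overlaps a protein-coding gene.

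Of the abundant members, LINC00173 (gene ID 100287569), studied in granulocyte development, was at 52.6, 53.8 and 53.9 CPM in shNC, at 69.7, 61.4 and 67.5 CPM in sh1-HUMT and at 77.5, 70.2 and 67.2 CPM in sh2-HUMT. Its lowest library with a HUMT hairpin was above its highest control. The log2 fold change was 0.31 and 0.42 (edgeR adjusted p = 0.00170 and 0.000167). LINC01504 (gene ID 100507540) was at 198.6, 201.2 and 199.3 CPM in shNC, at 220.2, 231.7 and 221.8 CPM in sh1-HUMT and at 210.8, 218.5 and 229.4 CPM in sh2-HUMT. The shNC libraries were tightly grouped below the others, and the log2 fold change was 0.17 and 0.14 (edgeR adjusted p = 0.00196 and 0.00703). With GC content and length corrected for it was 0.29 and 0.28.

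**Figure D3:**
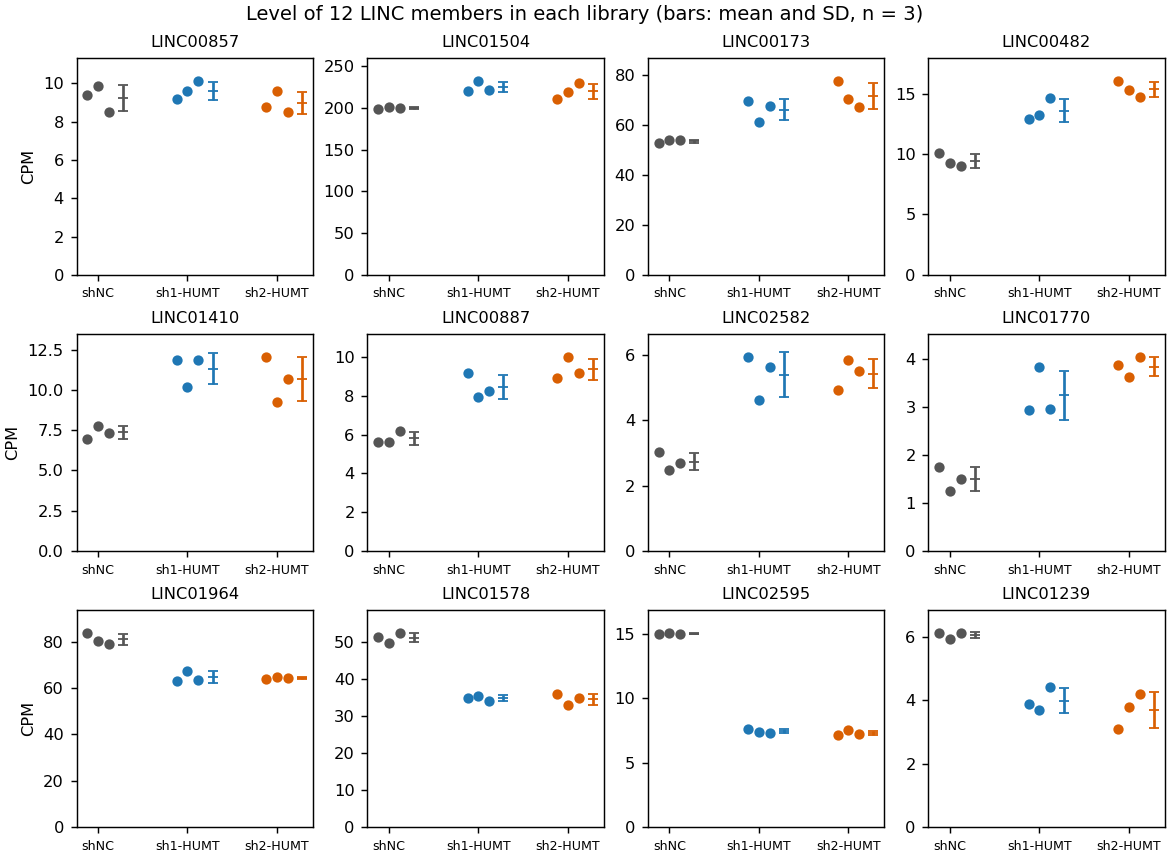
CPM of LINC00857 and of the 11 members whose calls held under every alternative run, in each library of shNC (grey), sh1-HUMT (blue) and sh2-HUMT (orange), with the mean and SD (n = 3) beside each group; axes start at 0. LINC00857 overlaps between groups, from 8.50 to 10.1 CPM, while in the other 11 all 6 hairpin libraries lie on the same side of the shNC libraries.

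The other 15 members called in both comparisons lost at least 1 call under an alternative. Of them, LINC00641, LINC01465, LINC00673, LINC01503, LINC01669 and LINC02246 fell, by 0.13 to 0.66 on the log2 scale in sh1-HUMT. LINC01503, known as a super-enhancer-driven RNA of squamous carcinomas, went from 6.63 ± 0.419 CPM to 4.86 ± 0.530 and 4.79 ± 0.575 CPM (SD, n = 3). LINC01465 went from 16.9, 14.4 and 14.9 CPM to 12.5, 7.69 and 8.94 CPM in sh1-HUMT and to 10.8, 9.91 and 10.8 CPM in sh2-HUMT, log2 -0.66 and -0.55 (edgeR adjusted p = 0.00653 and 0.0161). The implied length of LINC01465, 15761 bases, exceeds its RefSeq span of 1684 bases. LINC02246, LINC01669 and LINC00963 in both comparisons, and LINC01503 in sh1-HUMT (log2 -0.30, edgeR adjusted p = 0.0844), no longer passed once GC content and length were corrected for. The transcripts used for that correction had 991, 713 and 9557 bases for LINC02246, LINC01669 and LINC00963, against implied lengths of 8764, 4442 and 4268 bases. For LINC00963, the second member by counts, the adjusted p was 0.00830 and 0.0280 without that correction and 0.455 and 0.625 with it (edgeR).

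The risers in this set were LINC00963, LINC02298, LINC00467, LINC02175, LINC00689, LINC02057, LINC00987, LINC02091 and LINC01948. LINC00467 encodes ASAP, a small mitochondrial protein that binds ATP synthase. It went from 13.1, 12.4 and 12.2 CPM to 15.0, 15.1 and 15.0 CPM in sh1-HUMT and to 15.8, 15.0 and 13.2 CPM in sh2-HUMT, log2 0.26 and 0.22 (edgeR adjusted p = 0.0260 and 0.0487). The sh2-HUMT call of LINC00467 was lost in 12 of 18 alternative runs, DESeq2 and the replicate block among them. Its sh1-HUMT call was lost in 5. LINC00987 rose from 2.59, 2.76 and 2.12 CPM to 3.25, 3.55 and 3.71 CPM in sh1-HUMT and to 4.49, 4.57 and 4.47 CPM in sh2-HUMT, log2 0.49 and 0.86 (edgeR adjusted p = 0.0225 and 0.000726). What the LINC00987 row measures is uncertain. Its FPKM of 0.01 to 0.03 imply a counted length of 157812 bases, a rough value, against a RefSeq span of 22829 bases. LINC00689, with 22.8 counts on average, was at 0.706, 0.414 and 0.611 CPM in shNC, at 1.2, 1.26 and 1.07 CPM in sh1-HUMT and at 1.48, 1.54 and 0.984 CPM in sh2-HUMT. Its log2 fold change was 1.02 ± 0.31 and 1.2 ± 0.31 (SE; edgeR adjusted p = 0.0243 and 0.0101), and the shNC libraries lay below the other 6. In shNC alone LINC00689 lay below 20 counts, so the membership rule took it in through the groups where it was high. Its place among the risers thus rests in part on that rule.

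**Figure D4:**
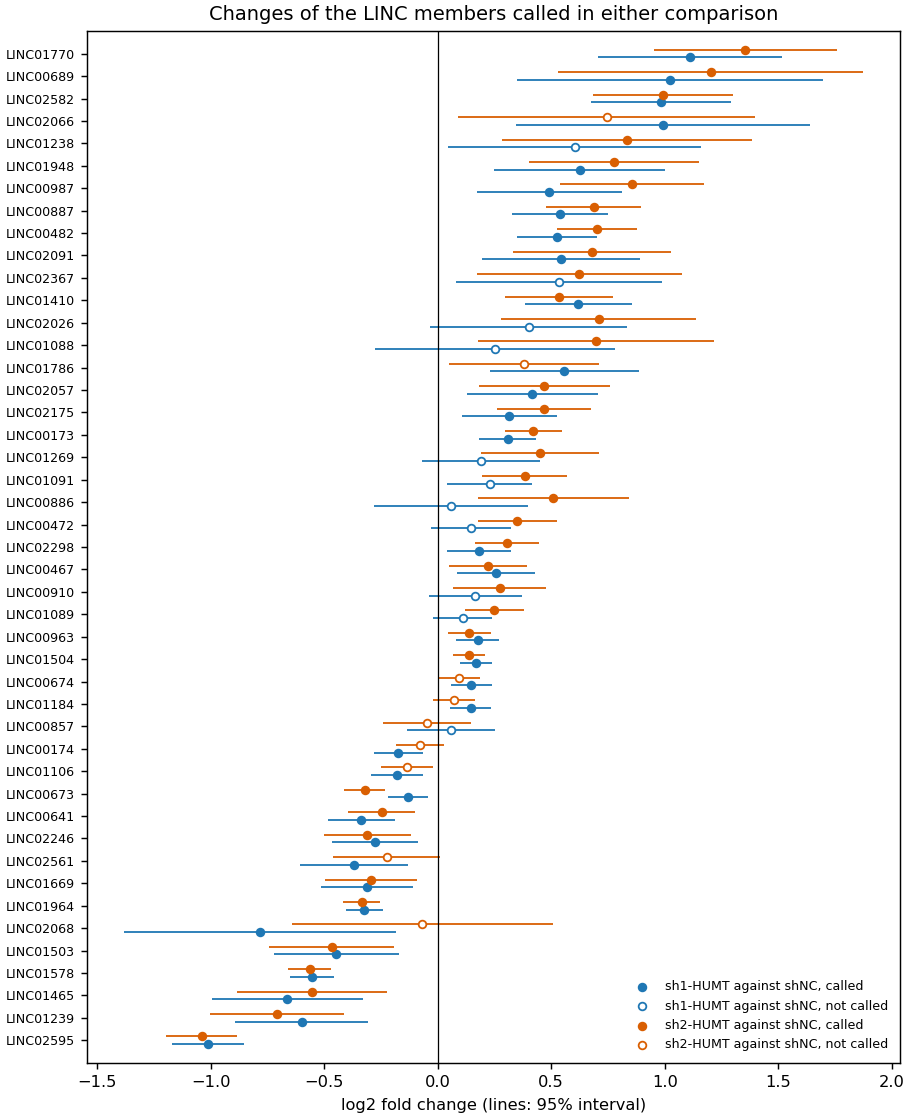
Log2 fold change against shNC with its 95% interval for the 44 members called in either comparison and for LINC00857, ordered by the mean of both changes; filled points were called and open points were not. The extremes are LINC02595 at -1.01 and -1.04 and LINC01770 at 1.11 and 1.35, while the intervals of LINC00857 cross 0.

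Among members called in 1 comparison, LINC02066 rose in sh1-HUMT, from 0.565, 0.783 and 0.846 CPM to 1.60, 1.53 and 1.25 CPM, log2 0.99 (edgeR adjusted p = 0.0234). In sh2-HUMT its log2 change was 0.74 (edgeR adjusted p = 0.0793). Like LINC00689, LINC02066 lay below 20 counts in shNC alone and became a member through the groups where it was higher. LINC00674, LINC01184 and LINC01106 of the 10 highest members were called in sh1-HUMT at log2 0.15, 0.15 and -0.18. Their values in sh2-HUMT were 0.09, 0.07 and -0.14 and did not pass the test. LINC00847 and LINC00893 passed in neither, with log2 changes of 0.07 and -0.03 and of -0.02 and 0.05. With GC content and length corrected for, calls were gained by LINC00674 and LINC01184 in sh2-HUMT (log2 0.28 and 0.21, edgeR adjusted p = 0.00118 and 0.00165), by LINC00847 in sh1-HUMT (0.18, edgeR adjusted p = 0.00297) and by LINC02066 in sh2-HUMT (0.99, edgeR adjusted p = 0.0244). In sh1-HUMT the corrected changes of LINC00674 and LINC01184 were 0.35 and 0.26, and LINC01106 lost its call (-0.12, edgeR adjusted p = 0.109). A few uncalled members had larger changes with wide spread, and these were picked after their values were seen. LINC00216 was at 3.44, 3.18 and 1.03 CPM in shNC and at 3.96, 6.16 and 8.13 CPM in sh1-HUMT, log2 1.25 (edgeR adjusted p = 0.0592). LINC01134 ran from 0 to 5.17 CPM within shNC alone.

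Between the hairpin groups, no member was called by edgeR's quasi-likelihood test, where 0.286% of all genes tested were called. At an unadjusted p under 0.05 there were 15 members (8.20%), beside 11.8% of genes. DESeq2 called 1 member, LINC00673, known from studies of lung and pancreatic cancer. Of the 8664 genes with an adjusted p in that run, 166 were called higher and 203 lower. LINC00673 stood at 39.4, 40.6 and 39.6 CPM in shNC, at 37.5, 36.2 and 35.4 CPM in sh1-HUMT and at 31.1, 32.0 and 32.5 CPM in sh2-HUMT. The 3 groups did not overlap, with sh1-HUMT between the others. The log2 change from sh1-HUMT to sh2-HUMT was -0.19 (95% interval -0.28 to -0.10), with an adjusted p of 0.0878 in edgeR and 0.0320 in DESeq2. Against shNC its log2 change was -0.13 and -0.32 (edgeR adjusted p = 0.0277 and 8.79e-05). LINC00857 differed between these groups by -0.10 (95% interval -0.30 to 0.09, edgeR adjusted p = 0.708).

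Several members changed in the direction of the gene beside them in RefSeq order. Of 94 pairs of a member and an adjacent tested gene, 17 had a called member in sh1-HUMT, and in 11 of these the neighbour was called too, 9 times in the same direction. In sh2-HUMT there were 20 such pairs, with 11 neighbours called and 11 in the same direction. Taken over all called genes, 37.0% and 37.8% of adjacent tested entries were called, 60.3% and 60.3% of them in the same direction. With the nearest tested gene on each side in place of the adjacent entry, a definition added after the data were seen, 61.3% and 68.8% of called neighbours went the same way as the member, beside 57.9% and 58.9% over all called genes. Neighbours may overlap, and without strand their reads cannot always be told apart.

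LINC02298 (gene ID 102723354) lies between GPR132, a proton-sensing receptor, and JAG2, a Notch ligand. GPR132 rose from 5.60, 5.48 and 5.69 CPM to 19.4, 16.5 and 17.5 CPM in sh1-HUMT and to 18.8, 17.1 and 17.1 CPM in sh2-HUMT, log2 1.67 and 1.66 (edgeR adjusted p = 4.09e-08 and 3.89e-08). LINC02298 itself was at 24.8, 22.5 and 21.6 CPM in shNC, at 26.5, 24.5 and 27.3 CPM in sh1-HUMT and at 28.7, 29.4 and 27.0 CPM in sh2-HUMT. Its change was smaller, log2 0.18 and 0.31 (edgeR adjusted p = 0.0474 and 0.00315), and in sh1-HUMT the libraries overlapped with shNC. The sh1-HUMT value was 0.34 with GC content and length corrected for. JAG2 rose by 0.26 and 0.45 on the log2 scale (edgeR adjusted p = 0.00442 and 8.59e-05).

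DMRTA1, a transcription factor with a DM domain and the neighbour of LINC01239, fell from 4.73 ± 0.138 CPM to 2.97 ± 0.700 and 3.08 ± 0.714 CPM (SD, n = 3), log2 -0.67 and -0.62 (edgeR adjusted p = 0.0201 and 0.0296). LOC105372190, beside LINC02582, rose from 0.808 ± 0.247 CPM to 2.44 ± 0.228 and 2.61 ± 0.363 CPM (SD, n = 3), log2 1.59 and 1.68 (edgeR adjusted p = 0.000394 and 0.000243). HNRNPC, a nuclear RNA-binding protein beside LINC00641, fell by 0.14 and 0.19 on the log2 scale, where LINC00641 fell by 0.34 and 0.25. ZFAND5, beside LINC01504, went the other way from it in sh1-HUMT, at log2 -0.15 (edgeR adjusted p = 0.0266), and did not pass in sh2-HUMT at -0.07. LINC01184, now named SLC12A2-DT for its divergent transcription from the cotransporter gene SLC12A2, rose by 0.15 in sh1-HUMT, where SLC12A2 rose by 0.09 (edgeR adjusted p = 0.0361).

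**Figure D5:**
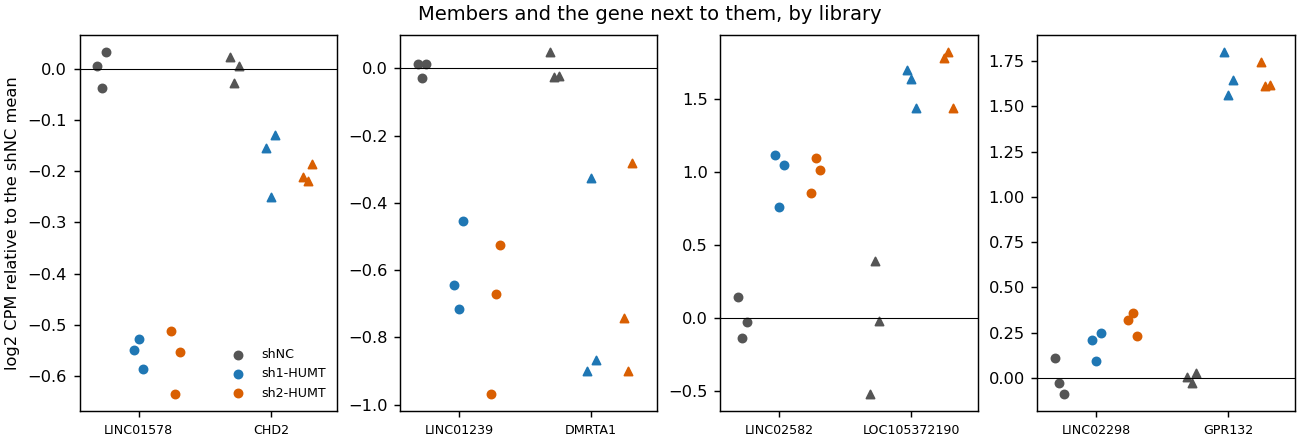
Log2 of CPM relative to the shNC mean in each library, for 4 members (circles) and the gene adjacent to each (triangles), coloured by group; vertical scales differ between panels. LINC01578 falls further than CHD2, LINC02298 rises far less than GPR132, and LINC01239 with DMRTA1 and LINC02582 with LOC105372190 go the same way. The 4 pairs drawn were all called in the same direction. Pairs called in opposite directions in sh1-HUMT are not drawn: LINC01504 with ZFAND5, and LINC01786 with UBE2J2 (log2 0.56 and -0.20).

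The gene models behind these rows differed from RefSeq in places. Implied lengths had a median of 5351 bases and ran from 352 to 248642 bases, with 18 members over 20000 bases. In 48 of the 184 members matched to RefSeq by gene ID the implied length exceeded the whole RefSeq gene span. Called in both comparisons among them were LINC00173, LINC00482, LINC00641, LINC00987, LINC01410, LINC01465, LINC02175 and LINC02595. Reads of other transcripts inside so long a model could count for the member. In RefSeq, 21 members overlap a protein-coding gene, and 7 (33.3%) and 5 (23.8%) of these were called, beside 27 (16.8%) and 31 (19.3%) of the 161 tested members that overlap none. The 2 members without a test, LINC02317 and LINC02407, were at 0 in 7 of the 9 libraries. LINC02317 had 226.3 counts in sh1-HUMT replicate 2 and 77.7 in sh2-HUMT replicate 1, and LINC02407 had 162.7 and 128.8 counts in sh1-HUMT replicates 2 and 3. Only 4 rows of the whole table had at least 7 libraries at 0 and another with at least 100 counts.

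Genes of nuclear RNA decay limit the level of many LINC RNAs. Of 23 exosome and cofactor genes tested, 3 rose and 10 fell in sh1-HUMT, and 1 rose and 11 fell in sh2-HUMT. Of all genes tested, 15.7% rose and 16.3% fell in sh1-HUMT and 15.9% rose and 16.5% fell in sh2-HUMT, and of those with at least 300 counts, 46.9% and 47.1% were called in either direction. The list's median log2 change was -0.16 and -0.14, beside 0.00 and 0.00 for all genes tested. ZCCHC8 and RBM7, subunits of the NEXT complex that brings RNAs to the exosome, fell by 0.23 and 0.32 and by 0.21 and 0.27 on the log2 scale. MPHOSPH6, an exosome cofactor, fell by 0.50 and 0.68, and PABPN1, a nuclear poly(A)-binding protein, by 0.23 and 0.15. ZFC3H1, of the PAXT connection, rose by 0.28 and 0.29. NCBP1 of this list fell by 0.19 in sh2-HUMT (edgeR adjusted p = 0.00146) and did not pass in sh1-HUMT at -0.10 (edgeR adjusted p = 0.0587). Of 23 Integrator and 3′ end processing genes tested, 7 rose and 2 fell in sh1-HUMT, and 7 rose and 4 fell in sh2-HUMT, with a median log2 change of 0.03 and -0.06. The Integrator subunits INTS3, INTS1 and INTS2 rose by 0.56 and 0.50, by 0.23 and 0.23 and by 0.43 and 0.33, while INTS6 fell by 0.93 and 0.87 on the log2 scale. INTS7 fell by 0.76 in sh2-HUMT (edgeR adjusted p = 0.000453) and did not pass in sh1-HUMT at -0.25 (edgeR adjusted p = 0.107). Apart from NCBP1 and INTS7 in sh1-HUMT, all named changes had an edgeR adjusted p of at most 0.0153. Whether the named changes bear on the LINC RNAs was not tested.

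At the edge of the rule, the members with the fewest counts were LINC02482 with a mean of 20.6, LINC01268 with 20.2 and LINC00271 with 20.1 counts. Just outside lay LINC01583 with 19.7, LINC00970 with 19.6 and LINC00683 with 19.1 counts. LINC01583 had 30.9, 31.7 and 34.3 counts in shNC, 18.5, 8.76 and 9.84 counts in sh1-HUMT and 14.1, 14.9 and 14.3 counts in sh2-HUMT. Its log2 fold change was -1.445 and -1.222 (edgeR adjusted p = 0.00383 and 0.00918), and it was not counted among the members called lower. A row that falls this far can drop below a mean of 20, so the rule leaves out some rows that are high in shNC alone. The mean gives more weight to the hairpin groups than to shNC. Near the threshold the rule therefore keeps rises, such as that of LINC00689, more readily than falls.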

How the data were processed

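Members, lists and tests were chosen with earlier results of these data known. The authors deposited 1 table with estimated counts and a per-length value for each library; the latter were treated as FPKM from their values, since the authors' headers name no unit. Per the submitters' processing notes, RSEM 1.2.12, DESeq2 1.4.5, Bowtie2 2.2.5 and HISAT2 2.0.4 were used, with no step named. Genome build, strand use and RNA selection are not given in the sources used here. Count columns were matched to titles by the arm and replicate they name per the file headers; 6 columns of group averages were not used.

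Estimated counts were rounded and tested with edgeR 4.0.16 in R 4.3.3 (TMM, filterByExpr by group, robust quasi-likelihood, 9 libraries in 1 fit of 3 group means). Benjamini-Hochberg adjustment ran over 18540 genes, with a threshold of 0.05 and no fold minimum. Filtering kept 183 of 185 members. The implied length is the estimated count per total count divided by FPKM. Intervals are at 95% and cover the spread between these libraries. In a simulation of sh1-HUMT against shNC with 18284 genes, the steps called 93.9% of genes with a 2-fold change, 70% of those with 1.5-fold, 16% of those with 1.2-fold and 5 unchanged genes. For sh2-HUMT, with 18287 genes, these were 90%, 77.6%, 10.2% and 11 genes. Changed genes were drawn from all genes tested, with the same spread for every gene and far fewer changes than in the data. The rates need not hold for members, which had lower counts.

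Neighbours follow RefSeq gene order (GRCh38.p14), matched by gene ID; coordinates are given only for RefSeq promoters, because the authors' build is unknown. Alternatives were DESeq2 1.42.0, its size factors, upper-quartile scaling, other filters and membership thresholds, the replicate block, only the groups compared, a fold minimum of 1 (log2), removal of the 2 most abundant entries and leaving out each library; the correction for GC content and length (a spline per library on the longest GENCODE transcript), members that overlap no coding gene and nearest tested genes were added later. Named members were LINC00857, the 10 highest, those called in both comparisons and the 5 largest called changes per comparison. The 3 on either side of the threshold and members with a known small open reading frame were also named. From each gene list, up to 4 called genes with the smallest adjusted p in each comparison were named.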

Additional observations from a re-analysis of the deposited data

How the results depend on the processing

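Total counts of called members stayed within 1.5 times the values given, except as follows. By direction, the GC and length correction gave 32 higher and 9 lower calls in sh1-HUMT in place of 20 and 14. Over all genes tested it gave 2906 higher and 2707 lower calls there, in place of 2902 and 3021. It also moved the change of LINC02057 in sh1-HUMT from 0.42 to 0.64 (log2). Requiring a log2 change of at least 1 left 3 members in each comparison with shNC and 3 in both. Leaving out 1 library in turn gave 24 to 34 calls in sh1-HUMT, 26 to 36 in sh2-HUMT and 17 to 24 in both, the lowest without sh1-HUMT replicate 1, when all 17 were among the 26. Calls over all genes in sh1-HUMT also fell without that library, to 2376 higher and 2400 lower. Between the hairpin groups, leaving out a library gave 0 to 1 calls (LINC02407 without sh1-HUMT replicate 1), and DESeq2 gave 1. Over all genes, DESeq2 called 166 higher and 203 lower of 8664 there, and edgeR without sh1-HUMT replicate 1 called 4 higher and 12 lower. For LINC00857, sh2-HUMT against shNC, the log2 change ran from -0.0968 to 0.008 (without shNC replicate 2) when a library was left out, and was 0.0461 with the GC and length correction; neither passed the test.

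Uncalled named members also reversed. With the GC and length correction, LINC00847 was at 0.0706 in sh2-HUMT, LINC00893 at 0.0589 in sh1-HUMT, and LINC01268 at 0.0699 and 0.0295 (log2). LINC00893 was at 0.0029 in sh1-HUMT with upper-quartile scaling. Leaving out a library in turn gave LINC00893 -0.0772 to 0.0381 in sh1-HUMT and -0.0235 to 0.0944 in sh2-HUMT, LINC01268 -0.1248 to 0.0294 in sh1-HUMT, and LINC00271 -0.0252 to 0.2758 in sh2-HUMT. The cause of these moves was not tested. Of 56 calls of named members, 31 held under every alternative run, where the fold minimum was applied to counts of calls only.

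Replicate numbers did not pair the libraries: correlations of same-numbered deviations ran from -0.025 to 0.05. With the replicate block, 31, 34 and 23 members were called in sh1-HUMT, sh2-HUMT and both, and 0 between the hairpin groups. Over all genes tested, the block called 2792 higher and 2925 lower in sh1-HUMT and 2820 higher and 2958 lower in sh2-HUMT. Between the hairpin groups it called 7 genes higher and 22 lower. Standard errors were larger at low counts, and whether depth sets the number of calls there was not tested.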
